A study of Mus musculus with 2 samples.

Results

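The JAK-STAT genes described here are 10 of the 13528 genes in the count table that the authors filtered. They are the transcription factor genes Stat3, Stat4, Stat5a, Stat5b and Stat6, the feedback inhibitor genes Socs1, Socs2, Socs3 and Cish, and the kinase gene Pim1. They were chosen by name, and all 10 held unique molecular identifiers (UMIs) in both libraries. Each gene was described by the cell type, cluster and genotype that the deposited annotation gives each cell.

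Single CD45+ liver cells were captured on BD Rhapsody microwells, and their transcripts and surface antibody tags were counted together. The TG group are dnTGFβRII animals on C57BL/6 (strain B6.Cg-Tg(Cd4-TGFBR2)16Flv/J). In these mice the CD4 promoter of the mouse expresses a human type II TGF-β receptor that acts as a dominant negative, so that the transgene acts in cells using this promoter, and they model primary biliary cholangitis. The WT group are C57BL/6 controls. The labels give an age of 10 weeks for both, whereas a younger age stands in the methods. The first library pooled TG cells with IFN-γ ARE-Del-/- cells and the second pooled WT cells with P40-/-IL-2Ra-/- cells, and cells of the other genotypes were not analysed here. Each genotype was therefore 1 library, so that genotype and library cannot be told apart and no test between them was possible.

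Cytokine receptors without kinase activity of their own carry Janus kinases, which phosphorylate STAT proteins when a ligand binds. STAT4 acts downstream of IL-12, STAT6 of IL-4 and IL-13, STAT3 of IL-6, IL-10 and IL-21, and the closely related STAT5A and STAT5B of IL-2, IL-7 and IL-15. Cish, Socs1, Socs2 and Socs3 are themselves induced by STATs, and their products dampen cytokine receptor signalling. PIM1 is a serine/threonine kinase that is also induced by STATs and favours survival and growth.

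Phosphorylated STAT dimers bind the palindrome TTCNNNGAA, which reads the same on both strands. It was looked for in the RefSeq promoter windows of GRCm38.p6, which run from 250 bases before to 50 bases after a start. Windows were found for 9 of the 10 members (13 windows), and the motif was in those of 2 members, Cish and Socs3. Over all 32851 windows, 2726 (8.30%) held it and 150 (0.457%) held 2 or more. The stretches of these 2 members are shown. Cish holds 2 motifs and Socs3 holds 1, and a link between the motifs and the levels was not tested. Capitals mark the motif, the sequence runs 5′ to 3′ on the strand of the gene, and positions are counted with the RefSeq start as base 1.
Cish, chr9:107296654-107296683, plus strand: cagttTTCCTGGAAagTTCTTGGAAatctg
Socs3, chr11:117969501-117969530, minus strand: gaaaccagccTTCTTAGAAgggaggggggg
The Cish motifs begin at positions 1 and 12, and that of Socs3 begins at position -154. Both stretches lie inside the gene spans of the GENCODE annotation of GRCm38, which are chr9:107296026-107302784 for Cish and chr11:117966079-117970047 for Socs3. A match of letters is a description and not a measured site.

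Stat5b, Stat5a and Stat3 lie next to each other on chromosome 11 within 158810 bases. Stat5a (100859351 to 100885169, plus strand) and Stat3 (100885098 to 100939540, minus strand) overlap by 72 bases at their 3′ ends, and 8626 bases separate Stat5b from Stat5a. The strand setting of the counting is not given in the sources used here, so reads from the overlap, and reads shared by the closely similar Stat5a and Stat5b, may have been assigned to either gene.

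The table held 4647 TG cells with 18498477 UMIs and 7282 WT cells with 22216379 UMIs. Levels are summed UMIs of a gene per 1000000 UMIs of the same cells (CPM), and values in parentheses after a level or a log2 ratio are exact 95% intervals for counting error only. The libraries shared 36 cell index numbers. Mixed cells, holding B as well as T genes with at least 2 UMIs each, made up 7.38% of TG and 3.58% of WT cells. The markers went against the annotation in 4 cell types. Cells named NK had Cd3e, a T cell receptor component, at 1158 CPM in TG and at 97.8 CPM in WT. CD8αα T cells had Trdc, a γδ receptor segment, at 95.1 CPM in TG and at 855 CPM in WT. Macrophages had the complement gene C1qa listed at 0 in TG and at 247 CPM in WT. Cells named immature B (cluster 10) had Vpreb3 at 17.2 CPM in TG and at 44.2 CPM in WT, below mature B cells (142 and 217 CPM), and are called cluster 10 B cells here.

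Highest, lowest and next levels and ranges are given over the cell types with at least 100 cells, 9 in TG and 11 in WT, and smaller types can lie outside these orders. Among the STATs, Stat4, the mediator of IL-12, was at 173 CPM (156 to 191) in TG and 238 CPM (215 to 263) in WT NK cells. NKT cells had 203 CPM (182 to 225) in TG and 159 CPM (149 to 169) in WT. Cluster 10 B cells had 22.1 and 25.6 CPM and pDC had 21.4 and 10.5 CPM, in TG and WT. The highest level was 9.18 times the lowest in TG and 22.7 times in WT. In WT the interval of the NK cells lay above those of the other 10 types, whereas in TG the highest types, NKT and CD8αα T cells (173 CPM (151 to 197)), overlapped.

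Stat6, the STAT of IL-4 signalling, was highest in monocytes at 236 CPM (198 to 278) in TG and 274 CPM (231 to 322) in WT, with an interval above that of the next type with at least 100 cells in both libraries. The 54 TG neutrophils, at 166 CPM (126 to 216), had an overlapping interval. The lowest levels among these types were 90.7 CPM in TG CD8αβ T cells and 87.5 CPM in WT cluster 10 B cells. Stat3 was highest in monocytes as well among types with at least 100 cells, at 306 CPM (263 to 354) in TG and 387 CPM (335 to 444) in WT. There the next cell type, macrophages in TG at 288 CPM and γδ T cells in WT at 326 CPM, had an overlapping interval, and the 17 TG γδ T cells had a higher level, 321 CPM from 20 UMIs. The range of Stat3 was 2.03-fold in TG and 2.43-fold in WT.

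Stat5b was at 142 CPM (114 to 176) in TG and 121 CPM (92.6 to 154) in WT monocytes and at 103 and 106 CPM in CD4 T cells, and these neighbours overlapped in both libraries. Stat5a, its paralog, had the fewest UMIs of the members, 523 in TG and 676 in WT. Among types with at least 100 cells it was highest in macrophages (52.3 and 47.9 CPM) and lowest in monocytes, at 10.0 CPM (3.68 to 21.8) in TG and 15.3 CPM (6.61 to 30.2) in WT. Among these types monocytes were thus at the top of the order for Stat5b and at the bottom for Stat5a in both libraries. Their Stat5a levels came from 6 UMIs in TG and 8 UMIs in WT. Those intervals overlapped the intervals of CD8αβ T cells, 20.8 to 29.5 CPM in TG and 23.3 to 35.7 CPM in WT. As given above, reads shared by Stat5a and Stat5b may have been assigned to either gene. Lower levels of Stat5a were those of 54 TG neutrophils, at 8.91 CPM, and of 16 WT basophils, with 0 UMIs.

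**Figure D1:**
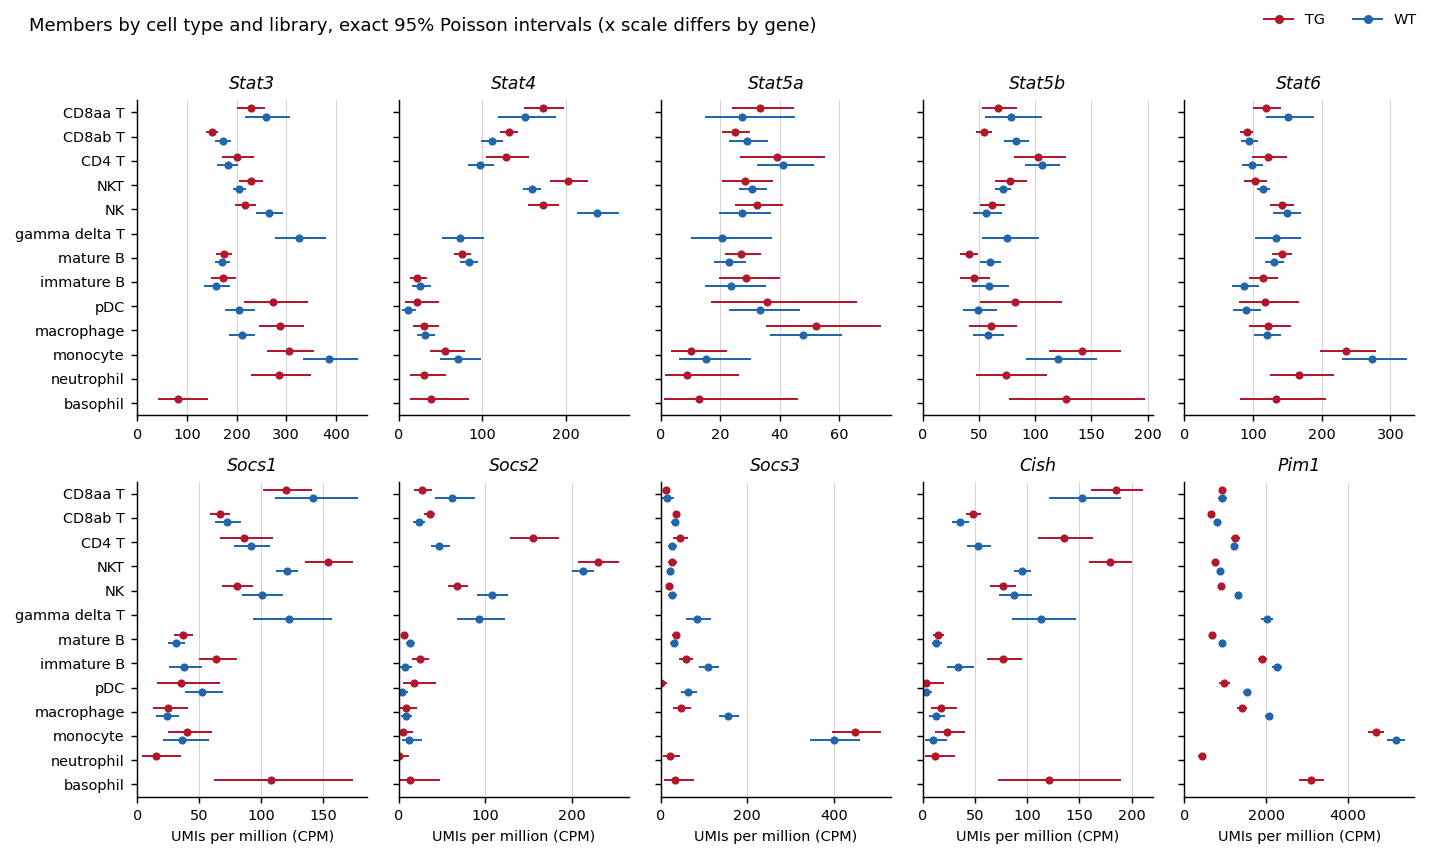
Level of each gene in CPM (x axis, from 0, scale differing by gene) in each annotated cell type (y axis), TG in red and WT in blue, as points with exact 95% Poisson intervals; types with under 30 cells in a library have no point. Stat6, Socs3 and Pim1 peak in monocytes, at 449.7 and 399.9 CPM of Socs3 in TG and WT, and Socs2 is at 230.0 and 212 CPM in NKT cells.

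The 4 feedback genes divided the cell types differently. Socs3, an inhibitor of gp130 cytokine signalling, was at 449.7 CPM (398 to 507) in TG and 399.9 CPM (348 to 458) in WT monocytes. The next type with at least 100 cells, cluster 10 B cells in TG with 57.3 CPM and macrophages in WT with 156 CPM, lay below the interval of the monocytes. Among types with at least 100 cells, CD8αα T cells were lowest, at 12.1 CPM (6.90 to 19.6) and 14.5 CPM (6.28 to 28.7). In pDC, a cell type known for interferon production, Socs3 had 0 UMIs in 46 TG cells, where 3 counts would be 10.7 CPM, and 67 UMIs at 63.8 CPM (49.5 to 81.0) in 219 WT cells.

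Socs2, best known as an inhibitor of growth hormone signalling, was highest in NKT cells, at 230.0 CPM (208 to 253) in TG and 212 CPM (201 to 224) in WT. The lowest types were monocytes in TG, with 3 UMIs at 5.02 CPM (1.03 to 14.7), and pDC in WT, with 4 UMIs at 3.81 CPM (1.04 to 9.75). The range, 45.9-fold in TG and 55.8-fold in WT, therefore rests on few UMIs. WT monocytes had 11.5 CPM and mature B cells 5.95 and 13.1 CPM. Cluster 28, 6 TG and 15 WT cells that the authors named other, was higher than NKT cells, with 34 UMIs at 632 CPM in TG and 70 UMIs at 825 CPM in WT.

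Cish, whose product CIS damps IL-2 family receptors, was highest in CD8αα T cells at 185 CPM (163 to 209.6) in TG and 153 CPM (122 to 189) in WT. The next type had an overlapping interval in both libraries. It was NKT cells in TG, with 179 CPM (159.8 to 199.9), and γδ T cells in WT, with 113 CPM (86.2 to 145). WT NKT cells had 95.4 CPM (88.1 to 103). Mature B cells had 14.6 and 13.4 CPM and macrophages 17.97 and 12.9 CPM. Socs1, an inhibitor of interferon receptor signalling, was also higher in these T cells than in macrophages. It was at 154 and 121 CPM in NKT cells, at 120.0 and 142 CPM in CD8αα T cells and at 24.5 and 23.6 CPM in macrophages, the lowest type with at least 100 cells. The 54 TG neutrophils had 14.9 CPM and the 17 WT neutrophils 0 UMIs.

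Pim1 was at 4681 CPM (4509 to 4857) in TG and 5172 CPM (4979 to 5371) in WT monocytes, the peak in both libraries. Cluster 10 B cells followed with 1909 and 2261 CPM among types with at least 100 cells, and the 45 TG and 16 WT basophils had 3097 and 2127 CPM. CD8αβ T cells were lowest among types with at least 100 cells, at 644 CPM (623 to 666) in TG and 803 CPM (771 to 835) in WT. The 54 TG and 17 WT neutrophils were lower still, at 434 CPM (366 to 510.0) and 435 CPM (311 to 593).

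Across the 17 clusters with at least 30 cells in each library, the Pearson correlation of log2(CPM + 10) between members was highest for Cish and Socs2 (r = 0.83), followed by Pim1 and Socs3 (0.77) and Stat3 and Stat6 (0.74). It was lowest for Pim1 and Stat4 (-0.46). The clusters share their libraries, depth and lineages, so these are descriptions. Of 7945 genes ranked by the same measure, Bmp7 (r = 0.95) and Podnl1 (r = 0.92) were most like Socs2. Those most like Cish were AU020206 (r = 0.93) and Ndfip1 (r = 0.89), and those most like Socs3 were Mcl1 (r = 0.87) and Il1b (r = 0.86). For Pim1 they were Eif4ebp1 (r = 0.91) and Map3k5 (r = 0.84), for Socs1 Atn1 (r = 0.88) and Alkbh4 (r = 0.85) and for Stat4 Sh2d2a (r = 0.90) and Ss18 (r = 0.90). For the other STATs they were H2.D1 (r = 0.87) and Irak4 (r = 0.85) beside Stat3, Dync1h1 (r = 0.82) and Ddhd1 (r = 0.79) beside Stat5a, Isg20 (r = 0.82) and AI467606 (r = 0.82) beside Stat5b, and Rlf (r = 0.88) and Midn (r = 0.87) beside Stat6.

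TG was then compared with WT within each cell type. Called here means at least 1.5-fold apart among genes with at least 50 UMIs over both sums. CD4 T cells had 3 of 10 members called, all higher in TG, against 20.5% of 6457 genes called in either direction. The median log2 ratio was 0.23 for the members and 0.07 for all genes. The called genes were Cish, Socs2 and Socs3, and no STAT was among them.

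Cish was at 135 CPM (111 to 162) in TG and 52.9 CPM (43.2 to 64.2) in WT CD4 T cells, a log2 ratio of 1.35 (0.95 to 1.75). Socs2 was at 155 CPM (129.6 to 184) and 46.7 CPM (37.6 to 57.4), a log2 ratio of 1.73 (1.33 to 2.13). For both genes the intervals of the levels were apart. Socs3 was at 43.8 CPM (30.8 to 60.4) and 26.7 CPM (19.9 to 35.0), a log2 ratio of 0.71 (0.06 to 1.35), and there the intervals of the levels overlapped. With each cell thinned to 1000 UMIs the log2 ratio of Socs3 was 0.50, under 1.5-fold. The log2 ratios of the STATs ranged from -0.07 (Stat5a) to 0.39 (Stat4).

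The CD4 T cells of TG and WT lay in the same 3 clusters in different shares. The naive-like cluster 6 (markers that include Ccr7 and Lef1) held 24.4% of TG and 54.1% of WT CD4 T cells, and the activated-like cluster 9 (Cd44, Icos and Il2ra) held 55.5% and 37.1%. Cluster 21, with Il2ra at 662 and 235 CPM, held 20.2% and 8.86%. With clusters given equal weight in both libraries, an alternative chosen after the values were seen, the log2 ratio of Cish was 0.80 and that of Socs2 was 0.97.

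The share of genes called was 17% of 4102 within cluster 9 and 21% of 1524 within cluster 21. Within cluster 9 Socs2 was at 151 CPM in TG and at 70.0 CPM in WT, a log2 ratio of 1.11 (0.58 to 1.66). Within cluster 21 it was at 303 and 137 CPM (1.14, 0.47 to 1.85). Cish was called within cluster 21, at 236 and 103 CPM (1.201, 0.43 to 2.02), but not within cluster 9, at 128 and 99.6 CPM (0.37, -0.15 to 0.87). The difference between these clusters was not tested.

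Of the 44 other pathway genes listed, 39 could be counted in CD4 T cells, of which 9 were higher and 5 lower in TG. Il2ra, the α chain of the IL-2 receptor, was at 176 CPM in TG and at 49.3 CPM in WT (1.84, 1.46 to 2.22), and Il2rb, its β chain, at 968 and 400.2 CPM (1.27). The median CD25 antibody value, the protein of Il2ra, was 0.41 in TG and 0.28 in WT on a natural log scale. Mature B cells had a higher median, 1.02 in TG and 0.96 in WT. The part of B cells in the antibody values of CD4 T cells was not tested. The IL-12 receptor gene Il12rb1 was at 42.6 and 13.4 CPM (1.67). The IL-6 receptor gene Il6ra was lower in TG, at 110.1 against 293 CPM (-1.41), as was Myc at 20.1 against 49.8 CPM (-1.31). Of the B cell markers, which T cells lack, Cd79a was at 72.2 CPM in TG and at 31.8 CPM in WT CD4 T cells and Ms4a1 at 15.4 and 5.65 CPM, and the part of such foreign transcripts in these values was not tested.

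In NKT cells 1 of 10 members was called, against 12.8% of 8818 genes. This was Cish, at 179 CPM (159.8 to 199.9) in TG and 95.4 CPM (88.1 to 103) in WT, a log2 ratio of 0.91 (0.71 to 1.11). The intervals were apart, and within cluster 0, which held 90.4% of TG and 89.0% of WT NKT cells, the log2 ratio was 1.01 (0.80 to 1.23). Stat4 (0.35, 0.18 to 0.53) and Socs1 (0.35, 0.14 to 0.55) were above 0 but under 1.5-fold. The pathway list had 5 genes higher and 3 lower of 43 counted, with the IL-10 receptor gene Il10ra at 60.6 against 26.8 CPM (1.18) and the kinase gene Pim2 at 95.2 against 47.7 CPM (1.00).

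**Figure D2:**
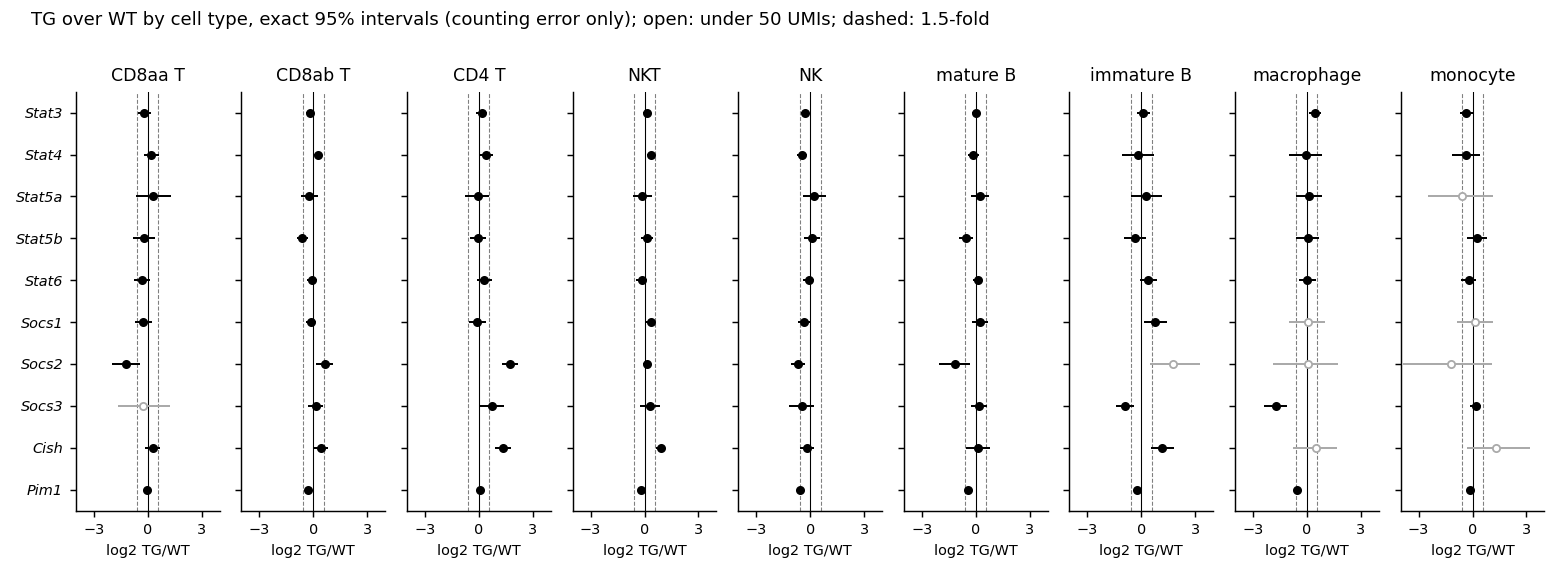
Log2 ratio of TG over WT CPM (x axis) for each gene (rows) in 9 cell types (panels), with exact 95% intervals for counting error; open grey points have under 50 UMIs and dashed lines mark 1.5-fold. Socs2 lies at 1.73 in CD4 T cells and at -1.23 in CD8αα T cells, and Socs3 at -1.72 in macrophages.

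CD8 T cells taken as a whole had 0 of 10 members called, against 14.3% of 9421 genes. CD8αα T cells had 1 of 9 called, against 15.9% of 5716 genes. This was Socs2, at 26.4 CPM (18.4 to 36.7) in TG and 61.8 CPM (42.8 to 86.4) in WT, a log2 ratio of -1.23 (-1.95 to -0.50) from 35 and 34 UMIs. The same cells differed in Trdc, as given above, with the γδ marker Cd163l1 at 1.51 and 1.82 CPM, and WT γδ T cells had Socs2 at 92.2 CPM (68.2 to 122). The part of γδ T cells in this value was not tested. Of the pathway list, 4 genes were higher and 3 lower of 35 counted, with the IL-7 receptor gene Il7r at 58.9 against 138 CPM (-1.23).

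CD8αβ T cells had 2 of 10 members called, against 15.7% of 9041 genes. Stat5b was lower, at 54.5 CPM (48.4 to 61.2) in TG and 82.9 CPM (73.0 to 93.7) in WT, a log2 ratio of -0.60 (-0.85 to -0.36). It was at 54.0 against 90.6 CPM in the naive-like cluster 4 (-0.75, -1.32 to -0.19) and at 33.0 against 74.4 CPM in cluster 13 (-1.17, -1.91 to -0.44). TG was below WT in clusters 7, 12 and 18 as well, under 1.5-fold, and above it in cluster 23, with 6 UMIs in TG. With equal cluster weights the log2 ratio of Stat5b was -0.52, and with cells thinned to 1000 UMIs it was -0.45, both under 1.5-fold. Socs2 was higher, at 35.5 CPM (30.6 to 40.9) in TG and 22.8 CPM (17.8 to 28.9) in WT (0.63, 0.23 to 1.05). It was at 0.30 with equal cluster weights and 0.36 after thinning, both under 1.5-fold, and cluster 7, with 47.5 and 43.7 CPM, held 31.3% of TG and 16.1% of WT CD8αβ T cells.

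Within cluster 4, 2 of 8 members were higher and 2 lower in TG, against 17.2% of 4726 genes called. Stat4 was at 173 CPM in TG and at 91.5 CPM in WT (0.92, 0.52 to 1.32). Socs3 was at 85.9 and 37.2 CPM (1.21, 0.61 to 1.82). Stat5a was lower beside Stat5b, at 23.5 and 43.9 CPM from 17 and 46 UMIs (-0.90, -1.79 to -0.07). Cells of this cluster differed in Il2rb as well, at 986 and 289 CPM. The median antibody value of CD122, its protein, was 1.37 in TG and 0.60 in WT on a natural log scale. In cluster 13 it was 1.47 and 0.93. TG cells of cluster 4 may therefore be less naive than those of WT, and the part of cell state in these values was not tested. Over all CD8αβ T cells the pathway list had 4 genes higher and 4 lower of 43 counted. Il12rb2, a signalling chain of the IL-12 receptor, was at 44.9 CPM in TG and at 13.05 CPM in WT (1.78). Il6st, which encodes gp130, was at 18.9 and 49.9 CPM (-1.40).

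NK cells had 1 of 10 members called, against 15.9% of 7537 genes. Socs2 was at 67.5 CPM (57.2 to 79.0) in TG and 107 CPM (91.7 to 124) in WT, a log2 ratio of -0.67 (-0.99 to -0.34), but at -0.19 with equal cluster weights and -0.50 after thinning, both under 1.5-fold. Cluster 3 held 34.7% of TG and 49.8% of WT NK cells and had Socs2 at 182 and 191 CPM (-0.06, -0.40 to 0.27). Cluster 11, 45.2% of TG and 3.58% of WT NK cells, had 8.62 CPM in TG and 1 UMI in WT. TG cells of clusters 3 and 11 had Cd3e at 1608 and 1401 CPM, against 122 and 129.6 CPM in WT, so the comparison set cells with a T cell transcript beside cells with little of it. In cluster 8, where Cd3e was at 133 and 67.5 CPM, Stat4 was at 179 CPM in TG and at 284 CPM in WT (-0.67, -1.03 to -0.32). The pathway list had 1 gene higher and 8 lower of 39 counted in NK cells.

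Mature B cells had 1 of 10 members called, against 9.91% of 8490 genes. Socs2 was at 5.95 CPM (3.64 to 9.19) in TG and 13.1 CPM (9.61 to 17.4) in WT (-1.14, -1.97 to -0.35), but at 0.13 without Scrublet doublets and at 0.02 without cells holding both B and T genes. Of the 47 WT UMIs, 33 came from cluster 17, whose WT cells had both Cd79a (1954 CPM) and Cd3e (609 CPM). In cluster 1, which held 96.3% of TG and 89.0% of WT mature B cells, Socs2 was at 5.10 and 4.94 CPM. There Cish had 34 UMIs at 10.8 CPM in TG and 7 UMIs at 2.47 CPM in WT. Of the 41 pathway genes counted in mature B cells, 2 were higher and 4 lower in TG.

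Cluster 10 B cells had 3 of 9 members called, against 13.8% of 5759 genes. Cish was at 76.9 CPM (62.2 to 94.1) in TG and 34.4 CPM (24.0 to 47.9) in WT, a log2 ratio of 1.16 (0.59 to 1.76). Socs1 was at 63.8 and 37.4 CPM (0.77, 0.20 to 1.37). Socs3 went the other way, at 57.3 CPM (44.7 to 72.4) in TG and 109 CPM (89.8 to 131) in WT (-0.93, -1.38 to -0.49). The intervals of Cish and Socs3 were apart between the libraries, whereas those of Socs1 overlapped (63.8 CPM, from 50.5, against 37.4 CPM, up to 51.3). Of the pathway list, 3 genes were higher and 4 lower of 34 counted, with Il2ra at 51.6 against 15.7 CPM (1.71).

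Macrophages had 1 of 7 members called, against 20% of 5713 genes, with a median log2 ratio of 0.03 for the members. With each cell thinned to 1000 UMIs 6 were called, against 42% of all genes, and the median was -0.68 against 0.02 for all genes. Socs3 was at 47.4 CPM (31.7 to 68.0) in TG and 156 CPM (136 to 179) in WT, a log2 ratio of -1.72 (-2.34 to -1.16). Cluster 27, 23 WT cells and 0 TG cells, had Socs3 at 586 CPM from 91 of the 219 WT UMIs. Within cluster 15, which held 81.7% of TG and 60.5% of WT macrophages, it was at 65.6 and 162 CPM (-1.30, -1.95 to -0.70). Of the macrophage markers with a row, Csf1r was at 629 and 398 CPM and Adgre1 at 40.8 and 139 CPM beside C1qa, and the part of macrophage subsets in this value was not tested. Osm, a gp130 cytokine gene, was also lower in TG macrophages, with 5 UMIs at 8.17 CPM against 37.2 CPM (-2.19), 1 of 2 pathway genes lower beside 6 higher of 34 counted.

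Monocytes had 0 of 6 members called, against 20.3% of 2927 genes, with Socs3 at 0.17 (-0.10 to 0.44) and Pim1 at -0.14 (-0.22 to -0.07) on the log2 scale. Pathway genes outside the 10 members were called in these cells. Stat2, a mediator of type I interferon signalling, was at 117 CPM in TG and at 36.4 CPM in WT monocytes (1.69), and Irf1, an interferon-induced transcription factor, at 1326 and 482 CPM (1.46). They were 2 of the 4 pathway genes higher in TG monocytes, with 2 lower, of 22 counted. Across cell types, the log2 ratio of Pim1 was below 0 in 8 of 9, with CD4 T cells (0.05) the exception. It reached -0.56 in macrophages and -0.55 in NK cells and was called in none of the 9. In macrophages it passed 1.5-fold with TMM scaling, which shifted log2 ratios there by -0.10.

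Clusters were next compared within a library, where both sides come from the same capture. The authors made the clusters from these transcripts, so the differences are descriptions. Activated-like over naive-like CD4 T cells gave 3 of 8 members called in TG, against 37.2% of 2363 genes, and 3 of 10 in WT, against 26.2% of 4955 genes. The called genes were Cish, Socs2 and Stat4 in both libraries. Cish was at 40.1 CPM in naive-like and 128 CPM in activated-like cells of TG (1.68, 0.55 to 3.05), and at 8.01 and 99.6 CPM in WT (3.64, 2.58 to 4.90). The 58 naive-like TG cells had 0 UMIs of Socs2, where 3 counts over the group would be 17.2 CPM. Activated-like cells had 151 CPM, a log2 ratio of 3.14 with 3 counts set in place of 0. In WT, Socs2 was at 11.01 and 70.0 CPM (2.67, 1.71 to 3.75). Both feedback genes were thus lower in naive-like cells of either library.

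Stat4 was at 68.8 CPM in naive-like and 187 CPM in activated-like cells of TG (1.44, 0.57 to 2.45) and at 63.1 and 132 CPM in WT (1.06, 0.59 to 1.54). Socs1, by contrast, was at 91.7 and 84.1 CPM in TG (-0.13, -0.99 to 0.81) and at 92.1 and 94.2 CPM in WT (0.03, -0.44 to 0.50). Among receptor genes Il2rb was at 338 CPM in naive-like and 849.7 CPM in activated-like TG cells (1.33) and at 53.1 and 804 CPM in WT (3.92). Il6ra had the opposite order, with log2 ratios of -1.53 in TG and -1.20 in WT. Of the pathway list, 5 genes were higher and 4 lower of 16 counted in TG, and 9 and 5 of 31 in WT.

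**Figure D3:**
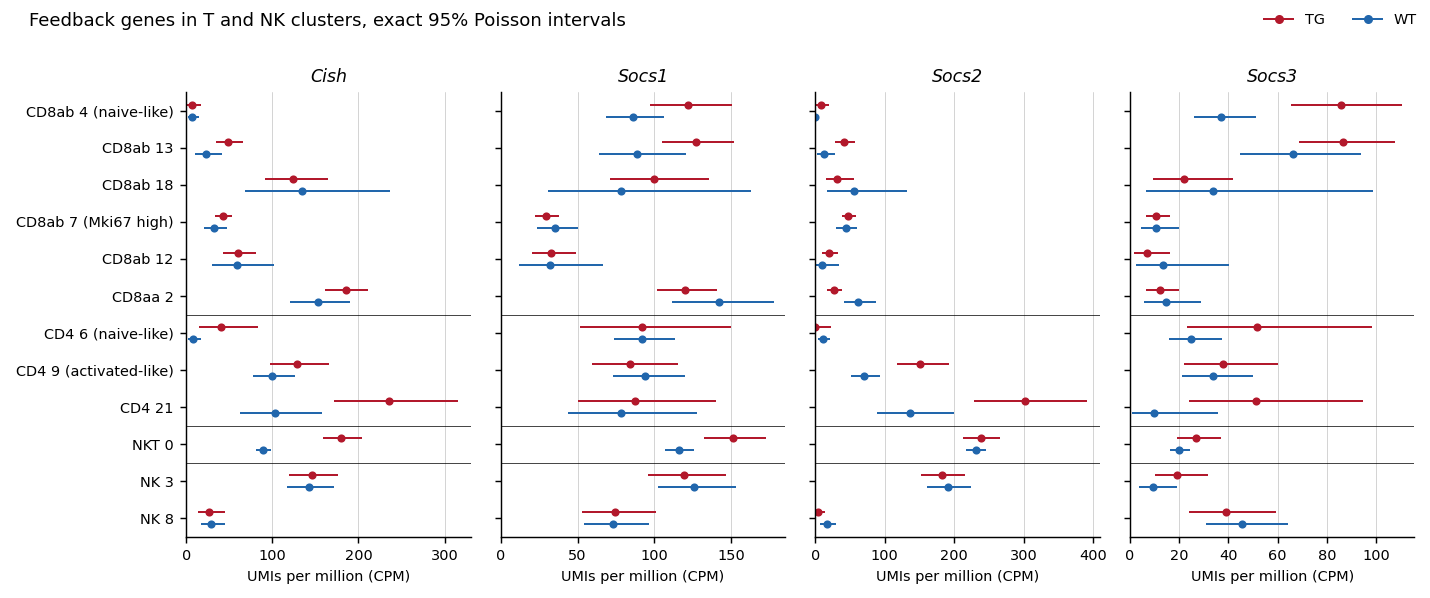
Level in CPM (x axis, from 0, scale differing by gene) of the 4 feedback genes in 12 clusters of CD8αβ, CD8αα, CD4, NKT and NK cells (y axis), TG in red and WT in blue, with exact 95% Poisson intervals; a cluster with under 30 cells in a library has no point there. Socs2 is at 8.31 and 0 CPM in naive-like CD8αβ cluster 4, and Socs1 is at 29.4 and 35.2 CPM in CD8αβ cluster 7, in TG and WT.

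Cluster 4, the naive-like side of the CD8 T cells, differed in CD122 between the libraries, as given above. It had Cish at 6.93 CPM in TG and at 6.67 CPM in WT. Cluster 2, which holds the CD8αα T cells, had 185 and 153 CPM, log2 ratios of 4.74 (3.497 to 6.37) and 4.52 (3.41 to 5.87). Cluster 18 had 124 and 135 CPM, and cluster 7, high in Mki67 and Top2a, had 42.6 and 32.0 CPM. Cish was thus lower in cluster 4 than in each of these clusters. After thinning to 1000 UMIs the TG cells of cluster 4 held no Cish UMI. With 3 counts set in its place, the log2 ratios were 3.25 for cluster 2 and 1.45 for cluster 7. Socs3 had the opposite order between clusters 4, 2 and 7, at 85.9 and 37.2 CPM in cluster 4 and at 12.1 and 14.5 CPM in cluster 2, log2 ratios of -2.83 (-3.72 to -2.02) and -1.35 (-2.66 to -0.24). In cluster 7 it was at 10.7 CPM in TG and at 10.7 CPM in WT, log2 ratios of -2.998 (-3.72 to -2.32) and -1.80 (-2.97 to -0.77), and both WT ratios had under 50 UMIs. Cluster 13 did not follow this order, with Socs3 at 86.7 CPM in TG (0.01, -0.48 to 0.51) and at 66.2 CPM in WT (0.83, 0.11 to 1.54), where it was called higher. After thinning to 1000 UMIs these log2 ratios were -0.57 and 0.30, both under 1.5-fold.

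Socs1 divided the CD8 T cells otherwise. It was at 29.4 CPM in TG and at 35.2 CPM in WT in cluster 7 and at 32.7 and 31.9 CPM in cluster 12, but at 122 and 85.8 CPM in cluster 4. The log2 ratio of cluster 7 over cluster 4 was -2.05 (-2.53 to -1.59) in TG and -1.29 (-1.91 to -0.70) in WT, and that of cluster 12 was -1.90 (-2.62 to -1.23) and -1.43 (-2.78 to -0.33). Both clusters were thus below cluster 4 in both libraries. Socs2 in cluster 4 was at 8.31 CPM in TG and had 0 of 1048811 UMIs in WT. In cluster 7 it was at 47.5 and 43.7 CPM, a log2 ratio of 2.52 (1.35 to 3.99) in TG. The WT log2 ratio was 3.93 with 3 counts set in place of 0.

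Much of the transcriptome differed between these clusters. Cluster 7 over 4 gave 6 of 10 members called in TG, against 51.8% of 6890 genes, and 3 of 7 in WT, against 47.7% of 5464 genes. Cluster 2 over 4 gave 2 of 9 in TG, against 45.3% of 5785 genes, and 5 of 8 in WT, against 40.2% of 4796 genes. Of the WT calls, Stat3, Stat4 and Socs1 were under 1.5-fold with TMM scaling (0.29, 0.41 and 0.41) and with totals without ribosomal and mitochondrial genes, which left 2. Cluster 12 over 4 gave 3 of 7 and 2 of 7, against 42.3% of 4410 genes and 38% of 3871 genes, and cluster 18 over 4 gave 3 of 8 and 0 of 6, against 40.9% of 3617 genes and 44.7% of 3480 genes. Cluster 13, which kept Ccr7, gave 2 of 8 in TG, against 13.7% of 4597 genes, and 5 of 8 in WT, against 16.4% of 4383 genes. In WT these were Stat4 (0.70), Socs3 and Pim1 (0.72), which were higher, and Stat5a (-0.95) and Stat6 (-0.86), which were lower, and Stat4 was at 0.35 after thinning, under 1.5-fold. In TG they were Cish (2.81) and Stat5b (-0.71). In WT cluster 23 over 4 gave 4 of 8, against 38.3% of 4095 genes, of which Stat3, Stat4 and Socs1 were under 1.5-fold with TMM scaling (0.34, 0.35 and 0.55) and with totals without ribosomal and mitochondrial genes. The median log2 ratio of all genes was 0.37 in TG and 0.25 in WT for cluster 2, and 0.29 and 0.16 for cluster 7. Among receptor genes, Il12rb2 in TG went from 4.16 CPM for cluster 4 to 96.6 CPM for cluster 2 (4.54), and Il7r from 1001 to 58.9 CPM (-4.09).

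Cells named NK also divided by their feedback genes, a comparison chosen after the values were seen. Cluster 3 had Itga1 at 516 CPM in TG and at 492 CPM in WT. It encodes an integrin of liver-resident NK cells, and the paper lists it for resident CD8+ T cells as well. Cluster 8 had the transcription factor gene Eomes at 391 and 692 CPM. In all, 4 of 8 members were called in TG, against 24.6% of 4609 genes, and 4 of 8 in WT, against 22.2% of 5092 genes. Cish, Socs2 and Socs1 were called higher in cluster 3 in both libraries. The other calls, both lower in cluster 3, were Stat6 in TG (-0.62) and Pim1 in WT (-0.67). Cish was at 146 CPM (120.3 to 175) in cluster 3 and 26.5 CPM (14.9 to 43.8) in cluster 8 of TG (2.46, 1.68 to 3.34). In WT it was at 143 CPM (118 to 171) and 28.9 CPM (17.9 to 44.2) (2.30, 1.62 to 3.05). The intervals were apart in both libraries. After thinning to 1000 UMIs the TG log2 ratio was 1.37.

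Socs2 was at 182 CPM in cluster 3 against 3.54 CPM, from 2 UMIs, in cluster 8 of TG (5.69, 3.81 to 8.75). In WT it was at 191 against 16.5 CPM (3.53, 2.68 to 4.51). After thinning to 1000 UMIs, where a side at 0 UMIs is set to 3 counts, the TG log2 ratio of Socs2 was 3.16. Socs1 followed with log2 ratios of 0.68 (0.14 to 1.24) and 0.79 (0.30 to 1.29). The TG ratio of Socs1 was under 1.5-fold with equal cell weights (0.33) and after thinning (0.27). Socs3 was lower in cluster 3, at 19.0 against 38.9 CPM in TG and at 9.59 against 45.5 CPM in WT, each from under 50 UMIs. Cluster 3 of TG carried Cd3e, as given above. WT cells, with 122 and 67.5 CPM of Cd3e in clusters 3 and 8, had the same direction for the 4 feedback genes.

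Receptor genes differed between NK clusters 3 and 8 in both libraries too. Il7r was at 114 and 17.7 CPM in TG and at 263 and 77.2 CPM in WT. Il21r was at 117 and 63.7 CPM in TG and at 177 and 33.1 CPM in WT. Il10ra and Ifngr1 were lower in cluster 3 in TG (-1.01 and -0.91) and in WT (-1.10 and -1.19). Of the pathway list, 4 genes were higher and 5 lower of 29 counted in TG, and 7 and 4 of 33 in WT.

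**Figure D4:**
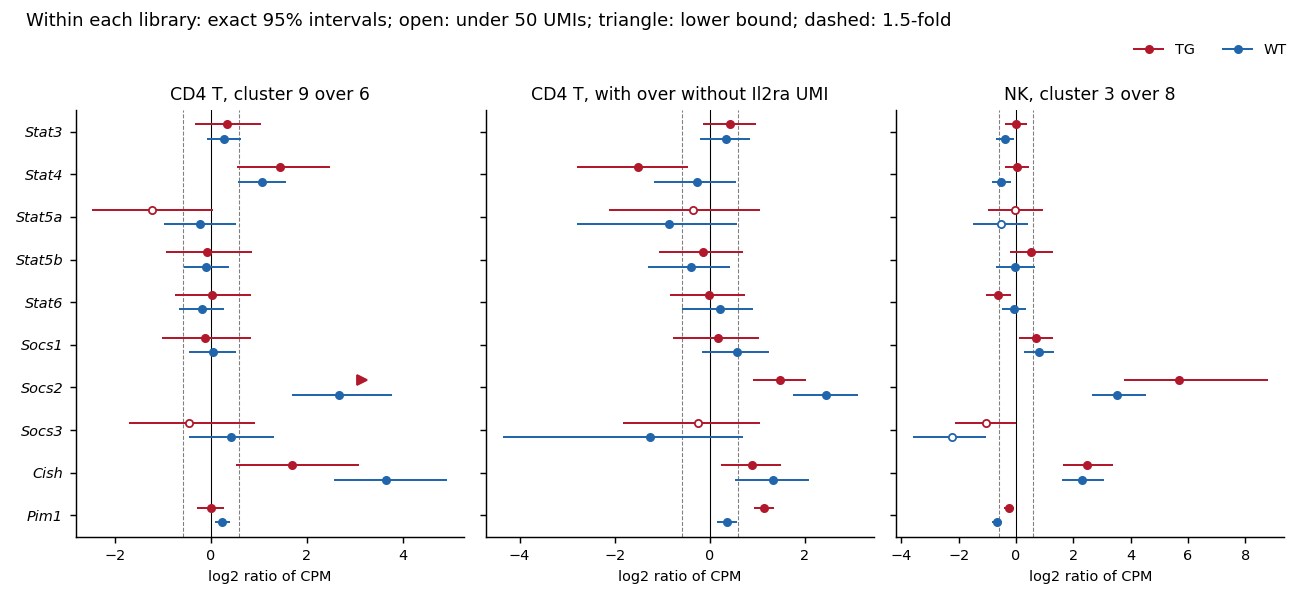
Log2 ratios of CPM (x axis) for each gene (rows) within TG (red) and within WT (blue), for CD4 T cells of cluster 9 over cluster 6, CD4 T cells with over without an Il2ra UMI, and NK cells of cluster 3 over cluster 8, with exact 95% intervals; open points have under 50 UMIs, the triangle is a lower bound and dashed lines mark 1.5-fold. Cish and Socs2 lie above the upper dashed line in all 3 panels and both libraries, Cish at its lowest at 0.89 in TG CD4 T cells with an Il2ra UMI.

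Last, CD4 T cells were divided by the transcript of the high affinity IL-2 receptor chain. An Il2ra UMI was found in 39 of 238 TG and 46 of 734 WT cells. Their median CD25 antibody value, on a natural log scale, was 0.88 against 0.35 for the other cells in TG and 0.48 against 0.28 in WT. Transcript and antibody value thus had the same order, and the part of B cells in the antibody values was not tested. Cells with an Il2ra UMI were also deeper, with medians of 3770 against 3095 UMIs in TG and 3036 against 2428 UMIs in WT.

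In TG 4 of 8 members were called, against 24% of 3042 genes, and in WT 4 of 10, against 28.6% of 5315 genes. Socs2 was at 324 CPM in cells with and 116 CPM in cells without an Il2ra UMI in TG (1.47, 0.94 to 2.00), and at 183 and 33.8 CPM in WT (2.44, 1.76 to 3.09). Cish was at 216 and 116 CPM in TG (0.89, 0.27 to 1.49) and at 118 and 46.7 CPM in WT (1.34, 0.56 to 2.06). Both genes were called in both libraries, but without the 3 cells holding most of its UMIs the WT log2 ratio of Cish was 0.57, under 1.5-fold. Pim1 was at 2252 and 1020.1 CPM in TG (1.14, 0.95 to 1.33) but under 1.5-fold in WT (0.36, 0.17 to 0.55). Stat4 was at 50.7 and 146 CPM in TG (-1.52, -2.77 to -0.49) and under 1.5-fold in WT (-0.26, -1.16 to 0.52). The TG value of Stat4 was under 1.5-fold when cells were divided by the CD25 antibody (-0.28) and within cluster 21 (-0.06, from 4 and 3 UMIs). Within cluster 9 it was -1.43, past 1.5-fold, and that value also rested on few Stat4 UMIs in the cells with Il2ra. The other members called in WT, Stat5a and Socs3, had 4 and 2 UMIs in cells with an Il2ra UMI.

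Cluster identity moved with this division. Within cluster 9 alone the TG log2 ratios were -0.05 for Socs2, -0.08 for Cish and -0.27 for Pim1, and within cluster 21 alone they were 1.21, 0.03 and 0.80. In WT, Socs2 was at 0.91 within cluster 9 and 0.83 within cluster 21, and Cish at 0.32 and 0.90. With cells divided at the median of the CD25 antibody value instead, Socs2 was at 0.49 in TG and 1.28 in WT, and Cish at 0.72 and 0.61. The TG values of Socs2 and Cish within cluster 9 were close to 0 and give no direction. No intervals were computed for these divisions, and the cells with an Il2ra UMI were few. A difference between the libraries was not tested.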

How the data were processed

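CD45+ liver cells of TG and WT mice were captured with BD Rhapsody in 2 libraries, each pooling cells of 2 genotypes. The authors aligned reads to mm10 with STAR in the BD Rhapsody pipeline, joined the datasets and clustered cells in Seurat, and deposited a filtered UMI count table with an annotation of genotype, cell type and cluster, and antibody values that are natural log centred ratios. The UMI filter and the strand setting are not given in the sources used here.

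From the deposited counts, UMIs were summed over cells of a type or cluster in each library and divided by their total to give CPM. Intervals are exact Poisson (levels) and exact conditional binomial (log2 ratios) at 95% and cover counting error only. With 1 library per genotype no test was run and no p-value is given. Cells were not removed in the values reported. Scrublet marked 39 TG cells (0.839%) and 238 WT cells (3.27%). No cell had under 1000 UMIs, the depth used for thinning. Without a row in the table were 2 marker genes.

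The members and gene lists were chosen with earlier results of these data known. Genes named in the text are the 10 members, pathway genes past 1.5-fold with Il2ra, for each member the 2 most alike genes, listed marker genes of the cell types, and Itga1, which was chosen after its values were seen. A few genes that enter the counts and marker lists are not reported here. Alternatives were TMM scaling, totals leaving out ribosomal and mitochondrial genes, cells weighted equally, removal of doublets and of cells with B and T genes, thinning to 1000 UMIs, removal of the 3 cells holding most UMIs, other UMI minimums and folds, equal cluster weights, and for the Il2ra division a CD25 antibody split and single clusters. In the library files the members' counts were identical to those of the filtered table. The code was tested on simulated data. Versions were Python 3.11.15, numpy 2.4.6, scipy 1.17.1, pandas 2.3.3, scanpy 1.11.5, matplotlib 3.10.9, R 4.3.3 and edgeR 4.0.16, the latter only for TMM factors. Promoter windows and gene names came from RefSeq and GENCODE tables of GRCm38.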

Additional observations from a re-analysis of the deposited data

Results flagged for a closer look

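The log2 ratios of Socs2 and Socs3, TG over WT, had opposite signs in different cell types. The log2 ratio of Socs2 was 1.73 in CD4 T cells and 0.63 in CD8αβ T cells, but -1.23 in CD8αα T cells, -0.67 in NK cells and -1.14 in mature B cells. With equal cluster weights it was 0.30 in CD8αβ T cells and -0.19 in NK cells, both under 1.5-fold. In mature B cells it was 0.13 without doublets and 0.020 without mixed cells. Among the lower values only that of CD8αα T cells stayed past 1.5-fold under the alternatives run. These cells all lie in cluster 2, so equal cluster weights could not change it, and neither could the identical counts of the library files. No alternative left out cells with Trdc, which differed between the libraries as given above. The log2 ratio of Socs3 was 0.71 in CD4 T cells (0.50 after thinning to 1000 UMIs, under 1.5-fold), but -0.93 in cluster 10 B cells and -1.72 in macrophages. With 1 library per genotype, the difference between cell types was not tested for either gene.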

How the results depend on the processing

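No paired analysis was possible because each genotype was 1 library, and for the same reason none was left out in turn. Of 2130 log2 ratios of single members recomputed under alternatives, 1987 stayed within the interval of the reported value, 135 left it with no called value changing sign, and 8 called values changed sign. Of 532 values of called members under alternatives, 51 were no longer past 1.5-fold and 36 stayed past it but moved by over 1.5 times. Of these 36, 17 came after thinning, where a side at 0 UMIs was set to 3 counts. Both totals, 2130 and 532, include alternatives that could not move a value. These are the identical counts of the library files and equal cluster weights in cell types made of a single cluster. The number of members called moved as follows, and the cause was not tested.

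For TG over WT, thinning each cell to 1000 UMIs moved it from 0 to 1 in CD8 T, 1 to 2 in CD8αα T, 3 to 5 in CD4 T, 1 to 2 in NK, 1 to 2 in mature B, 3 to 5 in cluster 10 B cells, 1 to 6 in macrophages (median of the members -0.68) and 0 to 2 in monocytes. The share of all genes called rose as well, to between 18.1% (mature B) and 42% (macrophages) over these types. Thinning also lost calls that these counts do not show, Socs3 in CD4 T (0.50), Socs2 in NK (-0.50), and in CD8αβ T cells, where the count stayed at 2, Stat5b (-0.45) and Socs2 (0.36). Totals without ribosomal and mitochondrial genes gave 1 in CD8 T and 1 in CD8αβ T cells, where 2 were reported. Equal weight for each cell gave 1 in CD8 T, 1 in CD8αβ T, 3 in NK, 2 in mature B cells and 2 in macrophages. Equal cluster weights, chosen after seeing the data, gave 0 in CD8αβ T (median 0.17), 0 in NK cells and 2 in macrophages. The 2-fold threshold left 0 in CD8αβ T, 0 in NKT, 0 in NK and 1 in cluster 10 B cells. In CD4 T cells it lost the call of Socs3 (0.71). Without doublets NK cells had 2 and without mixed B and T cells mature B cells had 2. With TMM macrophages had 2, Socs3 and Pim1, and with at least 1 UMI monocytes had 3.

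TMM shifted log2 ratios by -0.12 in CD4 T cells and -0.10 in macrophages for TG over WT, and by -0.15 to -0.43 for clusters 2, 7, 12, 18 and 23 over cluster 4. There TMM, and likewise totals without ribosomal and mitochondrial genes, moved the count from 5 to 2 (cluster 2, WT), 3 to 5 (18, TG), 2 to 5 (12, WT) and 4 to 1 (23, WT). Thinning gave 5 for cluster 2 in TG (54.4% of all genes called after thinning) and 3 in WT (48.7%), 3 for 13 in WT (33.5%) and 2 for 18 in WT (54.4%), where equal cell weights gave 2 and TMM and doublet removal 1 each, against 0 reported. For cells with over without an Il2ra UMI, the CD25 antibody split gave 1 in TG, against 4, and thinning gave 8 in WT, against 4, while the share of all genes rose from 28.6% to 47.5%.

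The reversed values were Socs2 in mature B cells without doublets (0.13) and without mixed cells (0.020), Socs2 (-0.049), Cish (-0.075) and Pim1 (-0.27) for the Il2ra division within TG cluster 9, and Stat5a after thinning for cluster 7 over 4 in WT (0.20, from 5 and 12 UMIs). For the Il2ra division in WT, Socs3 within cluster 21 (1.62) and Stat5a after thinning (0.63) had 0 UMIs in the cells with Il2ra, so that these values come from the 3 counts set in place of 0 and give no direction. Of the most alike genes, 4 of 10 pairs were unchanged with a pseudocount of 1 CPM and 0 with Spearman correlation. Cluster 23 over 4 was not run in TG, which had 15 such cells. The NK cluster comparison and the single-cluster divisions were chosen after seeing the data. Depth limits the values by cluster, since of 30 clusters Stat5a had under 50 UMIs in 22, Socs2 in 21, Socs3 in 19, Cish in 16 and Socs1 in 14.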
